A study of Rattus norvegicus with 3 samples.

Results

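The regions described here carried a peak of Dor in rat oligodendrocyte precursor cells (OPC) and in mature oligodendrocytes (mOL, labelled D3) but none in the immature oligodendrocytes (iOL, labelled D1) that lie between them in differentiation. They were chosen by the peak calls alone, by pooling the 3 deposited peak lists on chromosomes 1 to 20, joining peaks that overlapped by at least 1 base, and keeping the joined regions with an OPC peak, an mOL peak and no iOL peak. This gave 9723 of 254448 regions, or 3.82%. Because the rule used the peak calls themselves, the presence and absence of peaks describe the regions and are not results.

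Dor, the product of Tp53inp2, is known as a protein that moves between the nucleus and the cytoplasm. In the nucleus it acts as a coactivator of nuclear receptors, the thyroid hormone receptor among them, and in the cytoplasm it takes part in the formation of autophagosomes. Thyroid hormone is a classical signal for precursors to leave the cell cycle and become myelin-forming oligodendrocytes.

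Dor was mapped by CUT&Tag, in which an antibody brings a transposase to the bound protein so that the DNA around it is cut out and sequenced. All 3 libraries used a rabbit antibody against Dor and primary rat cells shaken off mixed glial cultures. The growth medium of OPC held 10 ng/ml of the mitogen PDGF-AA with 20 ng/ml of bFGF. The labels give T3, a thyroid hormone, as the treatment of iOL and mOL, and the differentiation medium held 15 nM of T3 with 10 ng/ml of CNTF. Each stage had 1 library, so replicate error could not be measured, stages were not tested against each other, and every difference below is one between libraries. The identity of the cells could not be checked on markers, since only peaks were analysed, and no control library was analysed here.

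The libraries differed in depth, which bears on every region without an iOL peak. Background coverage of the genome came to 0.540 fragments per base in iOL, 1.47 in OPC and 1.83 in mOL, so the OPC library was 2.73 times and the mOL library 3.39 times as deep as the iOL library. Mitochondrial fragments made up an estimated 36.1% of the background in iOL, 28.1% in OPC and 17.6% in mOL. Without them, the OPC library was an estimated 3.07 times and the mOL library 4.37 times as deep as the iOL library. Unless stated, the genome background used below includes them. The weakest possible iOL peak had 6 fragments at its summit, which is 11.1 times the iOL background, and a weaker site in iOL could not appear as a peak. In the following, strength is the number of fragments at a summit divided by the genome background of its library.

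Most of the regions were weak. Summits in OPC held a median of 20 fragments (quartiles 13 and 31, highest 194), which is a strength of 13.6, and those in mOL a median of 30 (quartiles 18 and 51, highest 361), a strength of 16.4. In 4601 regions (47.3%, 95% exact Clopper-Pearson interval 46.3 to 48.3%, counting error only) the OPC or the mOL peak was under 11.1 times its background, the level of the weakest iOL peak. Both peaks reached 20 times the background in 2136 regions and 50 times in 98. The peaks were short, with a median width of 449 bases in OPC and 509 in mOL. They overlapped by a median of 335 bases, and their summits lay a median of 174 bases apart. The summits were within 100 bases of each other in 3078 regions (31.7%) and over 500 bases apart in 841 (8.65%). Nearly all regions, 9614, joined 1 OPC and 1 mOL peak. The remaining 109 joined 3 peaks. Of these the strongest lay on chromosome 7 at 70752614 to 70755018 (rn5), where 1 OPC peak of 97 fragments met 2 mOL peaks, the higher of 122 fragments.

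The regions that the shallower iOL library could have called were separated by a coverage rule. The lower 95% Poisson limit of the summit count in OPC and in mOL was scaled to the iOL background, and a region counted as callable if iOL would then reach 6 fragments with a probability of at least 0.99 from both. This needs at least 49 fragments in OPC and 59 in mOL. It takes fragments as independent molecules and signal over background as equal in the libraries. By this rule, 544 of the 9723 regions (5.59%, 5.15 to 6.07%) were callable, and the other 9179 did not meet the rule. With a probability of 0.9 in place of 0.99, 1330 were callable. The pair just inside the limit lay on chromosome 3 at 9053450 to 9054543 and 13029917 to 13030854, with 49 and 52 fragments in OPC and 59 in mOL at both. The pair just outside lay on chromosome 1 at 263286527 to 263287730 and chromosome 8 at 117531437 to 117532381, with 49 and 52 fragments in OPC and 58 in mOL.

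**Figure D1:**
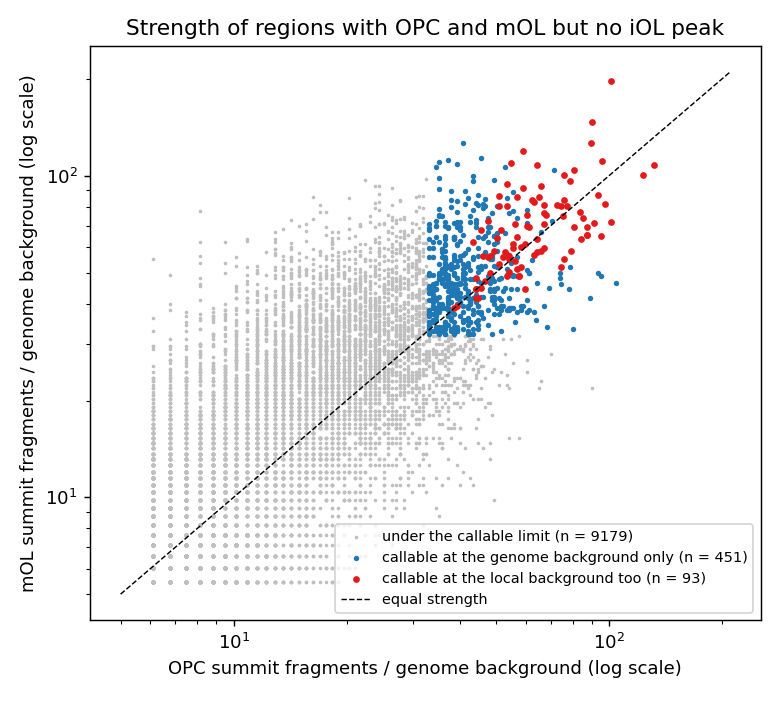
Strength (summit fragments over the genome background, both axes on a log scale) of each region with an OPC and an mOL peak and no iOL peak. The 9179 grey points lie under the callable limit, the 451 blue ones pass it at the genome background only, and the 93 red ones pass it at the local background as well. The dashed line is equal strength.

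The number of callable regions depended on the background used for the call. In peak calling, a site must stand above a local background, and that value was raised at these regions. Whether it includes fragments of the peak itself could not be told, since control libraries were not given. The higher local background of OPC and mOL was at least 2 times the genome background at 541 of the 544 callable regions (median 4.89 times). With that local background carried over to iOL, 93 regions remained callable. Where iOL did have a peak, at 1384 callable regions shared by all 3 libraries, its local background was lower, at a median of 0.511 times the higher of the OPC and mOL values. The iOL signal was lower too: at the 413 shared regions predicted to hold 30 or more fragments in iOL, the iOL summit reached a median of 0.696 times the prediction. With both measured factors applied, 46 regions remained callable. Both factors are medians over regions with an iOL peak, so regions that iOL did not call do not enter them. The rule used these medians with counting error only, without their spread between regions. In shared regions the lower quartile of iOL summit over prediction was 0.556 at 30 to 40 predicted fragments and 0.528 at 40 to 60. The 46 thus met the rule at the median factors, and its probability is not assured for each of them.

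Among all regions with an OPC and an mOL peak, 9723 of 14107 had no iOL peak (68.9%). Without an iOL peak, the OPC and mOL peaks must overlap each other. With one, they can be joined through it, and in some such regions the strongest OPC and mOL peaks did not overlap. These regions were not counted apart and are part of the totals here. Among those counted as callable, the share was 28.2% (544 of 1928, 26.2 to 30.3%). At the local background it was 17.3% (93 of 538, 14.2 to 20.8%). With both measured factors, taken at their medians, it was 12.2% (46 of 377, 9.07 to 15.9%). Other settings gave higher shares, among them 37.7% at a probability of 0.9, 43.4% where either library sufficed and 42.7% with 200 bases at each summit in place of the peaks. These shares are the background for every count of missing iOL peaks here, and since the rule used the same peak calls nothing further is read from them.

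The share without an iOL peak fell steadily with the number of fragments predicted for iOL from the weaker of the OPC and mOL peaks. It was 95.7% of 2198 regions predicted at under 4 fragments and 67.2% of 1692 at 8 to 10. It was 43.1% of 1403 regions at 15 to 20 and 28.1% of 306 at 25 to 30. At 30 to 40 fragments 46 of 278 regions had no iOL peak (16.5%, 12.4 to 21.4%), and at 40 to 60 fragments 16 of 143 (11.2%, 6.53 to 17.5%). At 60 or more, 0 of 54 regions lacked one, which allows a share of up to 5.56% by the limit of 3 counts and 6.60% by the exact interval. This order holds for the weaker of the peaks. By the stronger one alone, regions without an iOL peak reached a prediction of 107 fragments. At 60 or more fragments, where all 54 regions had an iOL peak, its summit held a median of 0.544 times the prediction, so the prediction was high there. At 15 to 20 fragments the median was 1.05 times, but the 43.1% of regions without an iOL peak do not enter it. It therefore cannot tell whether the prediction was right at lower counts.

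**Figure D2:**
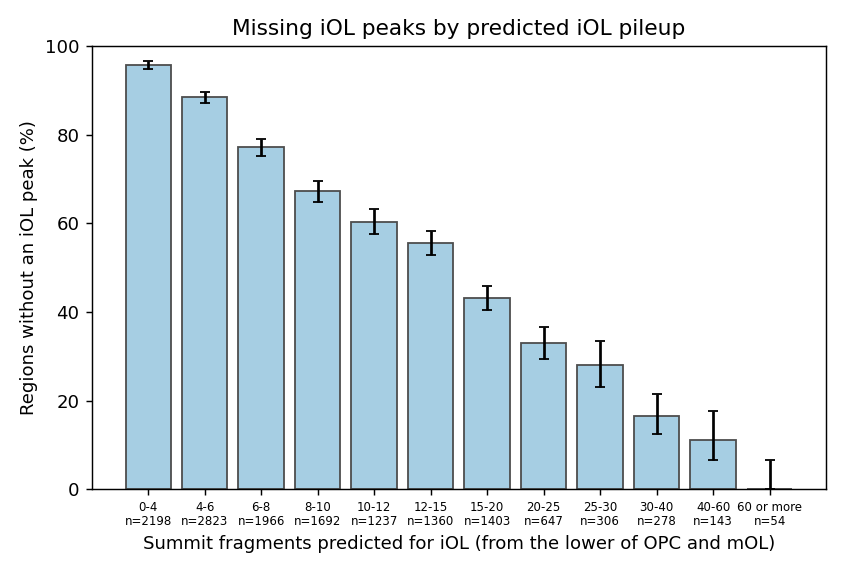
Share of regions with an OPC and an mOL peak that had no iOL peak, by the number of summit fragments predicted for iOL from the weaker of the 2 peaks. Bars start at 0, whiskers are exact 95% intervals for counting error and n is the number of regions. The share falls from 95.7% to 0%.

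The same question can be put to the other libraries. Of 3202 regions shared by iOL and mOL and callable in OPC, 340 lacked an OPC peak (10.6%, 9.57 to 11.7%). Of 3006 regions shared by OPC and iOL and callable in mOL, 139 lacked an mOL peak (4.62%, 3.90 to 5.44%). At the local background these shares were 6.23% and 2.84%, against 17.3% for iOL. With the measured iOL factors, which include a local background, the iOL share was 12.2% (9.07 to 15.9%). This interval overlaps that of OPC at the genome background (9.57 to 11.7%), but not at the local background (5.07 to 7.57%). The factors were measured for iOL alone, so there is no OPC share under the same rule. These shares come from the calls that chose the regions and are a description. The iOL library was also the shallowest and had the largest mitochondrial share, and the part of either in these shares was not tested.

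The 10 strongest callable regions, ranked by the lower of their OPC and mOL strengths, all stayed callable at the local background and with the measured iOL factors. Chromosome 10 held 3 of them. On chromosome 10 at 104162137 to 104163571, OPC had 194 fragments at the summit and mOL 198, and iOL was predicted to hold 71.1 from the former and 58.5 from the latter. Its fold over the local background, as the authors give it, was 19.9 in OPC and 14.3 in mOL. At 104125018 to 104126287 on the same chromosome, OPC had 141 fragments and mOL 203. These neighbours lay within 38554 bases of each other, and that stretch held 4 OPC peaks, 6 mOL peaks and 0 iOL peaks. Within 50000 bases on either side, 4 iOL peaks lay around the former region and 1 around the latter. The third, at 56110249 to 56111586, had 182 fragments in OPC and 184 in mOL, and the closest iOL peak was 41263 bases from it.

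On chromosome 14 at 86028348 to 86028793, OPC had 149 fragments and mOL 361, which are strengths of 101 and 197. The predictions for iOL were 54.6 and 107 fragments, against the 15 needed at the local background. Both peaks were short, at 446 and 356 bases, and their summits were 15 bases apart. The closest iOL peak was at 6027 bases, so the neighbourhood was not empty in iOL. This region had the highest mOL summit of all regions without an iOL peak.

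Chromosome 1 held a pair of the 10. At 81407678 to 81408909, OPC had 133 fragments and mOL 268, and at 66348798 to 66349260 the counts were 119 and 190. The region on chromosome 6 at 43822491 to 43823635 had 231 fragments in mOL and 132 in OPC. On chromosome 15 at 3413998 to 3415185 the counts were 138 and 159, at a distance of 49246 bases from the closest iOL peak. All of these had a higher count in mOL, the deeper library. The region on chromosome 4 at 145909567 to 145911159, with 144 fragments in OPC and 149 in mOL, was the widest of the 10, at 1593 bases. On chromosome 7 at 12313246 to 12313753, OPC had 116 fragments and mOL 176 at the same summit base, with 7 iOL peaks within 50000 bases. For all 10, the predicted iOL count lay between 42.5 and 107 fragments, and the count needed at the local background between 12 and 17.

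**Figure D3:**
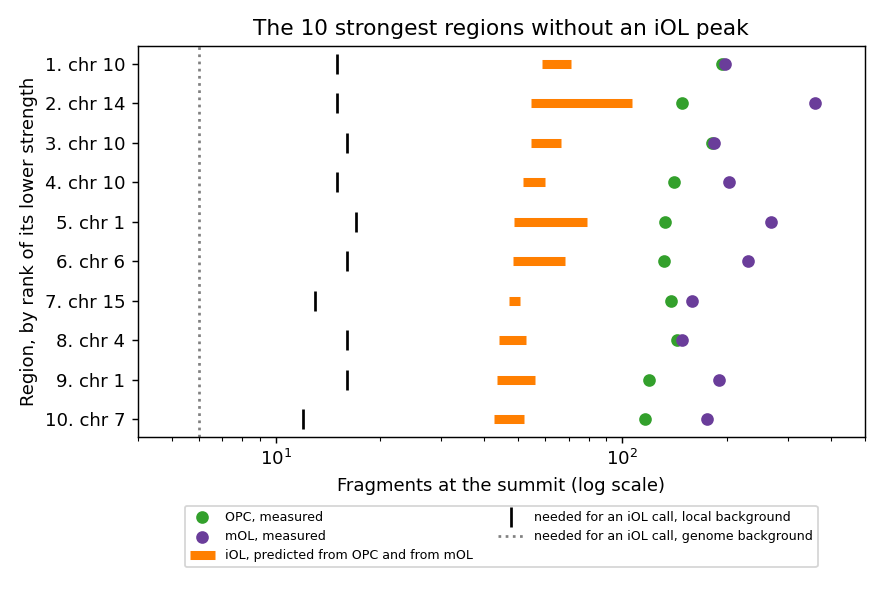
Summit fragments (log scale) in OPC and mOL at the 10 strongest callable regions without an iOL peak, ranked by the lower of their strengths, each named by its chromosome. Orange bars span the iOL counts predicted from OPC and from mOL, black ticks the count needed for an iOL call at the local background (12 to 17), and the dotted line the 6 fragments needed at the genome background. Every orange bar lies to the right of its tick.

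The 46 regions that passed with the measured iOL factors were spread over 19 of the 20 chromosomes, with 7 on chromosome 1, 6 on chromosome 7 and 4 each on chromosomes 10 and 16. Their OPC summits held 75 to 194 fragments (median 110.5) and their mOL summits 99 to 361 (median 147). The nearest iOL peak lay 265 to 56051 bases away, with a median of 16198. The mOL strength was the higher in 28 of the 46, and its counting interval lay above equality in 13. This was so in 28.4% of all regions with both peaks, most of which held fewer fragments. Among callable regions it was so in 24.4% of the 544 without an iOL peak and 38.3% of the 1384 shared by all 3 libraries. Besides the pair on chromosome 10, others lay close together. On chromosome 16, a region at 21306495 to 21307172 with 84 OPC and 157 mOL fragments was followed by one at 21330863 to 21331491 with 99 and 140. On chromosome 12, one at 32443347 to 32444525 with 129 and 127 was followed by one at 32470759 to 32471470 with 93 and 104. No iOL peak lay in either stretch, as in 16 of the 29 groups of close callable regions given below.

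Few of the callable regions without an iOL peak lay side by side. Of the 544, 64 lay in 29 groups with gaps of at most 50000 bases, and 26 of these groups were pairs. In 16 of the 29, the stretch held no iOL peak. By the rule, both ends of each stretch lack one, and the stretches spanned 1822 to 107807 bases. The share over other stretches of like length was not computed, so nothing is read from this count. Of 306 pairs of callable regions next to each other within that distance, both lacked an iOL peak in 33, 1 of the pair did in 128, and neither did in 145. Beside a region without an iOL peak, 34.0% of the callable neighbours also lacked one, against 30.6% beside a region with one. The largest group lay on chromosome 7 at 11486488 to 11594294, with 5 callable regions of strength 34.6 to 48.8, but this stretch also held 5 iOL peaks and 2 regions shared by all 3 libraries. On chromosome 1 at 142185142 to 142221789, 4 callable regions of strength 38.7 to 60.4 lay beside 2 iOL peaks. The groups were named for their number of members after the values were seen.

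The neighbourhood of the callable regions held iOL peaks. Within 50000 bases on either side there were a mean of 3.60 iOL and 4.52 OPC peaks, against 3.40 and 4 around callable regions shared by all 3 libraries. This is 0.796 iOL peaks per OPC peak near the former and 0.850 near the latter, and 0.372 and 0.366 iOL peaks per mOL peak. Over all peaks on chromosomes 1 to 20 there were 0.920 iOL peaks per OPC peak and 0.358 per mOL peak. In that range, 18 of the 544 had no iOL peak (3.31%), against 72 of the 1384 callable regions shared by all 3 libraries (5.20%). Over the whole set it was 577 of 9723 (5.93%).

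The nearest iOL peak lay a median of 10356 bases from a region of the whole set (quartiles 4195 and 21877) and 8443 bases from a callable one. It was within 1000 bases in 805 regions (8.28%, 7.74 to 8.84%), against 6.26% (6.04 to 6.48%) of regions found in OPC alone and 5.69% (5.57 to 5.81%) of those in mOL alone. Within 20000 bases the shares were 72.2%, 65.4% and 65.1%. Regions shared by OPC and mOL thus lay nearer to iOL peaks than those of 1 library. Strength differed between these classes as well, and its part was not tested. For a few callable regions the missing overlap was a matter of bases. On chromosome 19 at 41698587 to 41700536, with 50 OPC and 77 mOL fragments, the gap to an iOL peak was 7 bases. On chromosome 10 at 65822438 to 65823571, with 50 and 65 fragments, the gap was 13 bases, and on chromosome 4 at 208560801 to 208561574, with 82 and 109 fragments, it was 45 bases. Leaving out the 33 callable regions with an iOL peak within 500 bases left 511.

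At the other end, a region on chromosome 15 at 39885001 to 39885520 lay 243555 bases from the nearest iOL peak. OPC had 57 fragments and mOL 71 there, with folds of 18.9 and 17.7, and within 50000 bases there was no other peak of any library. The next most distant were on chromosome 1 at 152747569 to 152748291, at 86342 bases, and on chromosome 7 at 60742491 to 60743870, at 80708 bases. Around these, OPC and mOL had 3 to 4 and 11 to 12 further peaks within 50000 bases and iOL had 0.

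**Figure D4:**
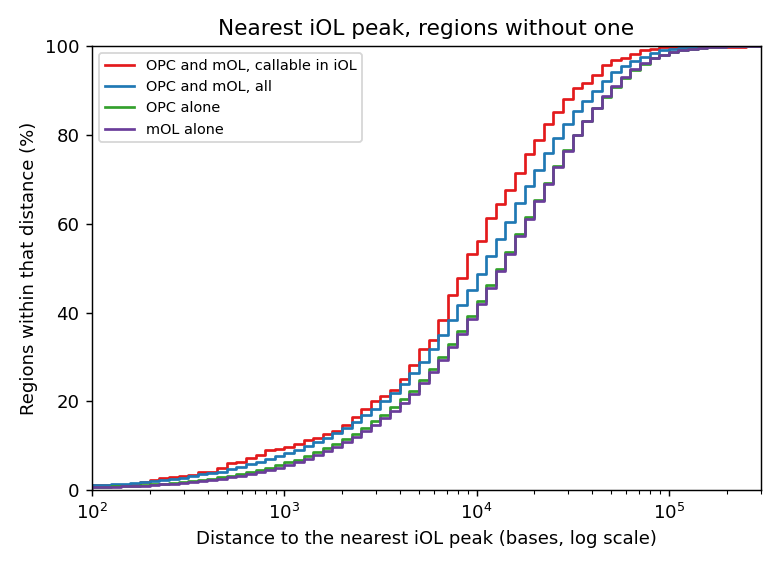
Cumulative share of regions (y axis, in percent) with an iOL peak within the distance on the x axis (bases, log scale), for regions in OPC and mOL but not iOL, the callable ones among them, and regions in OPC alone or mOL alone. The curves of OPC alone and mOL alone lie nearly on each other, at 65.4% and 65.1% within 20000 bases, and the curve of the whole set lies above them, at 72.2%.

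Between OPC and mOL, the regions were of similar strength, and the margin of mOL over OPC depended on the scale. Over the genome background, the median mOL to OPC ratio was 1.20, against 1.24 over all 14107 regions with both peaks, and 63.8% of the regions were higher in mOL. With coverage estimated without mitochondrial fragments, the median was 1.04 (1.08 over all), with 53.3% higher in mOL. By the authors' fold over the local background it was 1.04 (1.03 over all), with 53.7% higher in mOL. The mOL strength was at least 2 times the OPC strength in 1568 regions (16.1%, against 17.0% of all regions with both peaks), and the OPC strength at least 2 times that of mOL in 357 (3.67%, against 3.47%). These counts were 972 and 629 without mitochondrial fragments and 472 and 281 by fold. The counting interval of the ratio lay above equality in 2278 regions (23.4%, against 28.4% of all).

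Some callable regions did differ between OPC and mOL beyond counting error. The highest ratio, 3.13 (95% exact binomial interval 2.30 to 4.33), was on chromosome 3 at 14154937 to 14156142, with 52 fragments in OPC and 202 in mOL. On chromosome 8 at 131759010 to 131760135 it was 3.10 (2.33 to 4.19), from 60 and 231 fragments, and on chromosome 19 at 56762544 to 56763623 it was 3.08 (2.25 to 4.28), from 51 and 195. The lowest, 0.417 (0.301 to 0.572), was on chromosome 1 at 143069960 to 143070644, where OPC had 118 fragments and mOL 61. On chromosome 17 at 12588839 to 12590469 it was 0.445 (0.337 to 0.583), from 154 and 85, and on chromosome 3 at 145114037 to 145115197 it was 0.467 (0.348 to 0.625), from 131 and 76. By the authors' fold over the local background, the 3 highest ratios were 1.57, 1.42 and 1.22, and the 3 lowest, in the same order, 0.601, 0.352 and 0.634, so the size of the difference depended on the scale. None of these 6 regions was callable at the local background, since each had 1 weaker peak. They were picked as the extremes of 544, which their intervals do not allow for.

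Set beside regions of the same predicted iOL count that iOL shared, the regions without an iOL peak were shorter. At 20 to 30 predicted fragments, 299 regions without an iOL peak had a median width of 731 bases in OPC and 848 in mOL, against 849 and 974 in 654 shared ones. The ratio of mOL to OPC strength had a median of 1.11 in them, against 1.27, and by the authors' fold 0.935, against 0.966. At 10 to 15 fragments the widths were 628 and 722 against 696 and 818, and the ratio of strength was 1.24 against 1.38, or 0.993 against 1.04 by fold. The local background differed little between the classes at 10 to 15 fragments, at 2.32 against 2.30 times the genome background in OPC and 3.27 against 3.34 in mOL. In mOL the gap was wider at 20 to 30 fragments, at 4.83 against 5.32, with 3.72 against 3.71 in OPC. It was 6.57 against 6.90 in mOL and 5.36 against 5.21 in OPC at 30 to 60. At 6 to 10 it was 2.30 against 2.54 in mOL and 1.56 against 1.69 in OPC. At 30 to 60 fragments, with 62 regions against 359, the widths were 800 and 812 against 888 and 1018. The ratio of strength was then 1.10 against 1.16, and by fold the order turned, at 0.945 against 0.911. These measures come from the peaks that chose the regions and are given as a description.

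A small group of the callable regions was narrow. Both peaks were under 500 bases wide in 22 of the 544 (4.04%, 2.55 to 6.06%), against 21 of 1384 callable regions shared by all 3 libraries (1.52%, 0.942 to 2.31%). At the local background the numbers were 7 of 93 and 3 of 445. The width of 500 bases was chosen after seeing the data. A narrow region also has fewer bases with which to meet an iOL peak, so the rule itself favours narrow regions. These shares are a description. In these 7 the median fold was 17.5 in OPC and 19.3 in mOL, against 13.5 and 12.4 in the other 86 of the 93. Over the whole set, 3592 regions (36.9%) were this narrow, with a median fold of 5.25 in OPC and 5.41 in mOL, against 7.12 and 7.65 in the others. The 3 narrow shared regions had median folds of 11.4 and 9.93, against 13.5 and 12.4 in the other shared ones. Besides the regions on chromosomes 14, 1, 7 and 15 described above, the 7 narrow regions included those on chromosome 15 at 89919331 to 89919747, with 84 fragments in OPC and 118 in mOL, chromosome 3 at 18772709 to 18773228, with 75 and 158, and chromosome 8 at 132427145 to 132427539, with 67 and 124. Their summits in OPC and mOL lay 0 to 154 bases apart.

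Along the genome, the regions were densest on chromosome 10, at 6.56 per Mb, and on chromosome 12, at 5.75 per Mb, against 3.54 per Mb over chromosomes 1 to 20. These are 1.85 and 1.62 times the mean, where all regions stood at 1.35 and 1.14 times. They were sparsest on chromosome 4, at 0.668 times the mean, where all regions stood at 0.769 times. For callable regions without an iOL peak the contrast was larger, at 2.46 times the mean on chromosome 10, 2.22 on chromosome 12 and 0.346 on chromosome 4. Callable regions with or without an iOL peak were uneven too. They numbered 178 on the 111 Mb of chromosome 10, 74 on the 54.4 Mb of chromosome 12 and 85 on the 248 Mb of chromosome 4. The share of callable regions without an iOL peak was nearer to even. It ran from 18.9% on chromosome 13 (10 of 53) to 37.7% on chromosome 20 (20 of 53), and the intervals of all 20 chromosomes held the overall 28.2%. Genes, promoters and sequence at these positions were not assigned, since a genome and an annotation of rn5 were not used here.

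**Figure D5:**
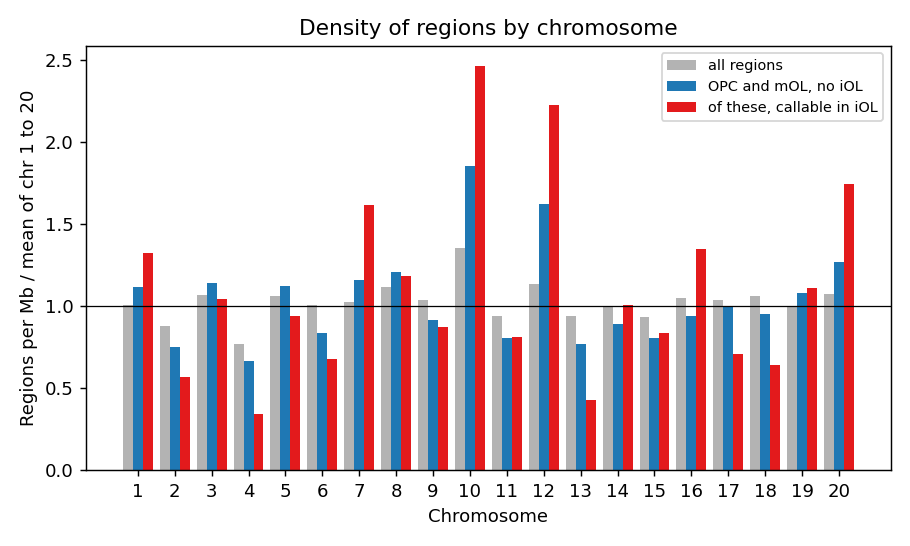
Regions per Mb on each chromosome divided by the mean of chromosomes 1 to 20, for all regions, for regions in OPC and mOL but not iOL, and for the callable ones among the latter. Bars start at 0 and the line marks the mean. Chromosomes 10 and 12 stand highest in the 2 latter groups and chromosome 4 lowest.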

How the data were processed

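The analysis started from the authors' deposited peak lists, 1 for each of the 3 CUT&Tag libraries. Tools listed in the submitters' processing notes, without roles, are MACS2 2.2.7.1, Bowtie2 2.4.4 and deepTools 3.5.1, and the build listed is rn5. Control libraries, pooling and the treatment of duplicates were not given in the sources used here. The deposited fold is linear and was read as a ratio to the local background, with 1 added to both the summit count and that background. The p and q are deposited as −log10 values (p at least 5). The deposited score is 10 times the −log10 p without decimals in 99.989 to 99.995% of rows. Coordinates are rn5, counted from 1.

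Summit counts and local backgrounds were recovered from fold and p under the Poisson model of MACS2. The −log10 p of the whole-number count lay within a relative 0.0001 of the deposited −log10 p in 100% of peaks, and in simulated peaks 100% of 1657 OPC, 1571 iOL and 1713 mOL counts were recovered. Of 7231 simulated regions counted as callable, 99.99% were called, which checks the calculation only. The genome background is the median of the lowest local backgrounds of a library. Intervals are exact (Clopper-Pearson, Poisson or binomial) at 95% and cover counting error only. Mitochondrial coverage was estimated from the local background of mitochondrial peaks, with sequence lengths taken as the end of the last peak. Python 3.11.15, numpy 2.4.6, pandas 2.3.3 and scipy 1.17.1 were used.

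The regions and thresholds were chosen with earlier results of these data known. Regions named are the 10 strongest callable ones, the 3 highest and 3 lowest ratios whose interval left out equality, the 3 nearest to and 3 farthest from an iOL peak, the strongest of those with the most joined peaks, and the pairs beside the callable limit. Groups of close regions, the narrow regions and the examples from the 46 were added after seeing the data. The planned gene lists, features and motifs were not run.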

Additional observations from a re-analysis of the deposited data

Results flagged for a closer look

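Outside the chromosomes used in the comparisons, chromosome X carried 262 regions with an OPC and an mOL peak and no iOL peak. This was 78.2% of its 335 regions with peaks in OPC and mOL, against 68.9% (9723 of 14107) on the chromosomes compared. The 262 regions had a median strength of 11.5 in OPC and 13.1 in mOL. Of the callable regions on chromosome X, 9 of 23 lacked an iOL peak, against 28.2% (544 of 1928) on the chromosomes compared. The difference between chromosome X and the others was not tested.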

How the results depend on the processing

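The number of regions was 9723, and it was 8099 with peaks of a −log10 q of at least 5, 9267 without regions that had an iOL peak within 500 bases and 9988 with all sequences included. It fell to 6103 with a fold of at least 5, 6461 with lists of equal length, 6421 with an overlap of 50% of both peaks, 6286 with 200 bases at each summit and 2137 with OPC and mOL peaks of at least 20 times the background. The 50% overlap is a stricter rule of joining, and the other 4 keep fewer or shorter peaks. The 544 callable regions became 1330 at a probability of 0.9, 3068 at 0.5, 1380 with the count in place of its lower limit and 2132 if either library sufficed. They became 93 at the local background and 336 without mitochondrial fragments. Settings added after seeing the data gave 168 with the measured iOL signal, 46 with the measured signal and local background, and 38 without mitochondrial fragments at the local background. With 200 bases at each summit there were 643. The median mOL to OPC ratio of 1.20 was 1.04 by fold and 1.04 without mitochondrial fragments, and the 1568 regions at least 2 times stronger in mOL became 472 and 972. The share with an iOL peak nearby was 4.69% within 500 bases, 28.7% within 5000 and 72.2% within 20000. Chromosome 10 had the highest density for callable regions too. At the genome background, an iOL call needs at least 6 fragments, 11.1 times the iOL background. No paired analysis was possible because there is only 1 library for every stage.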
